A study of Mus musculus with 12 samples.

Results

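The integrin subunit genes and the laminin chain genes were followed across a reprogramming experiment in mouse fibroblasts. The members were every protein-coding row of the count table whose symbol is that of an integrin alpha or beta subunit or of a laminin alpha, beta or gamma chain, without the binding-protein genes that share the prefix. This gave 37 of 24207 genes, of which 26 are integrin subunits and 11 are laminin chains. Of these, 34 had enough reads to be tested, and the leukocyte integrin alpha genes Itgad, Itgae and Itgax, with 14, 21 and 18 reads over the 12 libraries, did not.

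The cells were C57BL/6 mouse embryonic fibroblasts (MEFs) that carried the lentiviral vectors FUW-OSKM and FUW-M2rtTA, so that doxycycline turns on the reprogramming factors Oct4, Sox2, Klf4 and c-Myc (OSKM). All were harvested at day 7, with 3 libraries in each of 4 groups. Double-knockdown cells received doxycycline and short hairpin RNAs (shRNAs) against Trim28 and Setdb1. Trim28-knockdown cells received doxycycline and a Trim28 shRNA, and induced control cells received doxycycline and a scrambled shRNA. Uninduced cells carried the same vectors and the scrambled shRNA but had no doxycycline. All 4 groups grew on irradiated feeder MEFs in embryonic stem cell medium, and the labels do not say that feeders were removed, so feeder RNA may be part of every value. The labels do not say whether replicates were separate cultures, so p-values measure the spread between these libraries, which may be technical. Each library is bulk RNA, in which a larger number of cells expressing a gene and more of its RNA per cell cannot be told apart.

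Integrins are heterodimers of an alpha and a beta subunit that span the plasma membrane and hold cells to the extracellular matrix. Laminins are secreted trimers of an alpha, a beta and a gamma chain, and are the main adhesive proteins of basement membranes. Fibroblasts are known for collagen and fibronectin receptors, while epithelial cells sit on laminin. The epithelial laminin that holds the Lama3 and Lamb3 chains and the integrin built from Itga6 and Itgb4 meet in the hemidesmosome, the structure that anchors epithelial cells to the basement membrane. Reprogramming of fibroblasts by OSKM is known to pass through a mesenchymal-to-epithelial transition. Trim28 is a co-repressor that recruits the histone methyltransferase Setdb1, which places the repressive mark on lysine 9 of histone H3.

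Libraries held 11906701 to 19191649 counts, and mitochondrial transcripts took 1.78% to 2.37% of them. Trim28 stood at 95.5 to 107 normalised counts per 1000000 (CPM) in double-knockdown cells and 52.2 to 64 CPM in Trim28-knockdown cells, against 286 to 361 CPM in induced control cells and 221 to 266 CPM in uninduced cells. Setdb1 stood at 54 to 70 CPM in double-knockdown cells and 121 to 124 CPM in Trim28-knockdown cells, against 76.4 to 84.4 CPM in induced control cells and 56.8 to 65.3 CPM in uninduced cells. Trim28 was higher in every double-knockdown library than in any Trim28-knockdown library, so these groups differ in the level of Trim28 as well as of Setdb1. The fibroblast markers summed to 15600 to 18100 CPM in double-knockdown cells, 11500 to 12900 CPM in Trim28-knockdown cells, 14300 to 21400 CPM in induced control cells and 20700 to 25000 CPM in uninduced cells, with all 9 markers detected in each group.

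With induction, 16 of the 34 tested members were higher and 13 were lower in induced control than in uninduced cells (edgeR quasi-likelihood test with Benjamini-Hochberg adjustment over all genes tested, adjusted p under 0.05). Over all 14520 genes tested, 32.7% were higher and 32.7% lower, so that 85.3% of the members and 65.3% of all genes were called. The 16 higher members include Itgal, Itgam, Itgb6 and Lamc3, which passed the filter on low counts through the induced groups. The median log2 fold change was 0.17 for the members and -0.02 for all genes. Integrins split into 9 higher and 10 lower of 23, and laminins into 7 higher and 3 lower of 11. With library totals alone as the scaling, the median of all genes moved to 0.11 and the split of calls over all genes became 5826 higher and 3623 lower, against 4743 and 4741.

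Among induced cells, the Trim28-knockdown libraries had 8 members higher and 6 lower than the induced control, where 13.1% of all genes were higher and 11.8% lower. The double-knockdown libraries had 9 higher and 8 lower than the induced control, where 18.1% of all genes were higher and 18.5% lower. These comparisons share their control libraries. Set directly against Trim28-knockdown libraries, the double-knockdown libraries had 10 members higher and 8 lower, where 10% of all genes were higher and 11.7% lower. Both counts of members higher in double-knockdown cells include Itgb2, which passed the filter on low counts only through the double-knockdown libraries. The medians of the members were 0.08, -0.01 and 0.03 in these 3 comparisons, and those of all genes were 0. Without any single Trim28-knockdown library, 5 members in place of 8 were higher in Trim28-knockdown than in induced control cells. Between double-knockdown and Trim28-knockdown cells, 5 in place of 10 were higher without double-knockdown library 1 or without Trim28-knockdown library 2. That count was 6 without double-knockdown library 3, Trim28-knockdown library 1 or Trim28-knockdown library 3.

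**Figure D1:**
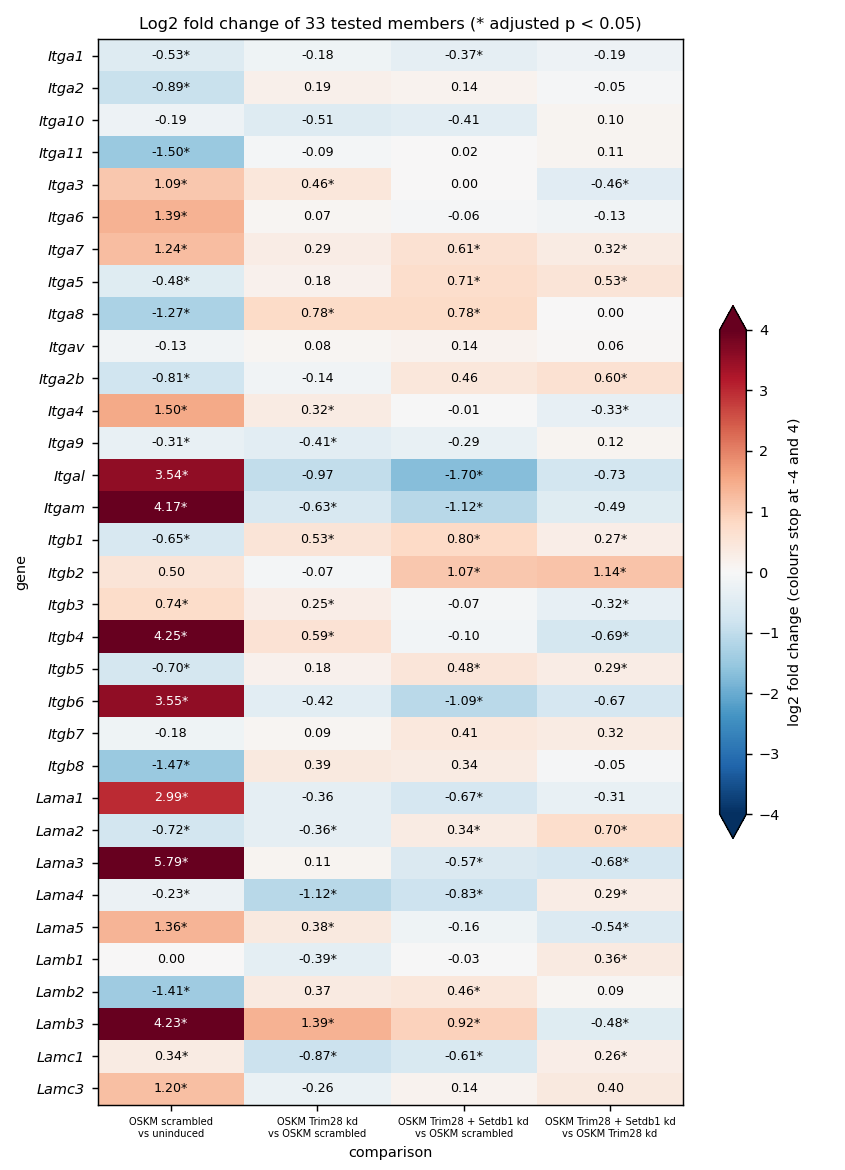
Log2 fold change of 33 of the 34 tested members (rows, by role) in the 4 comparisons (columns), with the value printed in each cell and an asterisk where the adjusted p was under 0.05. Lama3, Itgb4, Lamb3 and Itgam have the largest values, 5.79, 4.25, 4.23 and 4.17, all in the comparison of induced control with uninduced cells.

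The epithelial laminin chains Lama3 and Lamb3 were low in uninduced cells and both rose with induction, by 55.3 and 18.8 times. Their calls differed in the knockdown libraries. Lamb3 was higher than in the induced control in both kinds of knockdown cells, Lama3 was lower in double-knockdown cells, and both were lower in double-knockdown than in Trim28-knockdown cells. Lamb3 had 91.3, 96.3 and 94 CPM in double-knockdown cells, 132, 135 and 125 CPM in Trim28-knockdown cells, 52.8, 45.2 and 50.8 CPM in induced control cells and 3.25, 2.38 and 2.26 CPM in uninduced cells. No libraries of different groups overlapped, and Trim28-knockdown libraries were highest. Lamb3 had a log2 fold change of 4.23 ± 0.11 (SE, edgeR adjusted p = 1.92e-14) for induced control over uninduced cells. Lamb3 also had a log2 fold change of 1.39 ± 0.079 (SE, edgeR adjusted p = 3.5e-09) for Trim28-knockdown over induced control cells. The gene had a log2 fold change of 0.92 ± 0.078 (SE, edgeR adjusted p = 2.58e-07) for double-knockdown over induced control cells and a log2 fold change of -0.48 ± 0.076 (SE, edgeR adjusted p = 0.000347) for double-knockdown over Trim28-knockdown cells. Lama3 had 47.9, 61.7 and 55 CPM in double-knockdown cells, 85.3, 89.7 and 88.9 CPM in Trim28-knockdown cells, 76.9, 89.3 and 78.5 CPM in induced control cells and 2, 1.41 and 0.97 CPM in uninduced cells. Double-knockdown libraries lay below all other induced libraries, and Trim28-knockdown and induced control libraries overlapped. Lama3 had a log2 fold change of 5.79 ± 0.16 (SE, edgeR adjusted p = 2.11e-14) with induction. The gene had a log2 fold change of -0.57 ± 0.1 (SE, edgeR adjusted p = 0.000365) for double-knockdown over induced control cells and a log2 fold change of -0.68 ± 0.1 (SE, edgeR adjusted p = 0.000191) over Trim28-knockdown cells, while Trim28-knockdown over induced control cells gave a log2 fold change of 0.11 ± 0.099 (SE, edgeR adjusted p = 0.457).

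Levels of epithelial markers were followed beside these chains. The 7 keratinocyte markers summed to 613 to 744 CPM in double-knockdown cells, 868 to 966 CPM in Trim28-knockdown cells, 829 to 902 CPM in induced control cells and 10.2 to 13 CPM in uninduced cells. The 7 simple-epithelium markers summed to 907 to 1130 CPM in double-knockdown cells, 1620 to 1830 CPM in Trim28-knockdown cells, 1600 to 2020 CPM in induced control cells and 7.3 to 8.35 CPM in uninduced cells. Most of the first sum in induced cells was Krt14, which averaged 412 CPM in double-knockdown cells, 532 CPM in Trim28-knockdown cells, 505 CPM in induced control cells and 0.872 CPM in uninduced cells. Most of the second in induced cells was Krt8, which averaged 645 CPM in double-knockdown cells, 1020 CPM in Trim28-knockdown cells, 1060 CPM in induced control cells and 0.678 CPM in uninduced cells. With induction 5 of the 6 tested keratinocyte markers and all 7 simple-epithelium markers were higher. In Trim28-knockdown over induced control cells 1 keratinocyte marker was higher and 3 were lower, and 3 simple-epithelium markers were lower and 4 did not pass. In double-knockdown over induced control cells 4 keratinocyte and 7 simple-epithelium markers were lower. In double-knockdown over Trim28-knockdown cells 4 keratinocyte and 7 simple-epithelium markers were also lower, and none was higher. Of all genes 32.7% were higher with induction. Against the induced control, 11.8% of all genes were lower in Trim28-knockdown cells and 18.5% in double-knockdown cells. In double-knockdown over Trim28-knockdown cells 11.7% of all genes were lower. Of the simple-epithelium markers, Cldn6 and Esrp1 had no read in uninduced cells, so they passed the filter on low counts through the induced groups. Both marker sums were smaller in every double-knockdown library than in any other induced library. In double-knockdown over induced control cells Lamb3 was higher, Lama3 was lower and Itgb4 did not pass. In double-knockdown over Trim28-knockdown cells Lama3, Lamb3 and Itgb4 were all lower. The part of epithelial cells in the values of Lama3, Lamb3 and Itgb4 was not tested.

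The alpha chain of most epithelial and vascular basement membranes, Lama5, also rose with induction, while the mesenchymal and endothelial chain Lama4 was lower in every knockdown library than in any induced control library. Lama5 had 411, 455 and 379 CPM in double-knockdown cells, 597, 621 and 590 CPM in Trim28-knockdown cells, 497, 396 and 495 CPM in induced control cells and 214, 187 and 139 CPM in uninduced cells. Trim28-knockdown libraries stood above all others, and double-knockdown and induced control libraries overlapped. Lama5 had a log2 fold change of 1.36 ± 0.13 (SE, edgeR adjusted p = 7.79e-08) with induction. The gene had a log2 fold change of 0.38 ± 0.12 (SE, edgeR adjusted p = 0.031) for Trim28-knockdown over induced control cells, a log2 fold change of -0.16 ± 0.12 (SE, edgeR adjusted p = 0.331) for double-knockdown over induced control cells and a log2 fold change of -0.54 ± 0.12 (SE, edgeR adjusted p = 0.00507) for double-knockdown over Trim28-knockdown cells. The Lama5 call for Trim28-knockdown over induced control cells did not hold (adjusted p in brackets) without Trim28-knockdown library 1 (0.0759), 2 (0.106) or 3 (0.0714) and without induced control library 2 (0.109). Lama4 had 116, 117 and 95.6 CPM in double-knockdown cells, 93.8, 85.7 and 89.1 CPM in Trim28-knockdown cells, 220, 189 and 176 CPM in induced control cells and 225, 214 and 245 CPM in uninduced cells. Induced control and uninduced libraries overlapped, and both knockdown groups lay below them. Lama4 had a log2 fold change of -1.12 ± 0.093 (SE, edgeR adjusted p = 2.94e-07) for Trim28-knockdown over induced control cells and a log2 fold change of -0.83 ± 0.092 (SE, edgeR adjusted p = 4.41e-06) for double-knockdown over induced control cells. Double-knockdown over Trim28-knockdown cells gave a log2 fold change of 0.29 ± 0.093 (SE, edgeR adjusted p = 0.0346), and induced control over uninduced cells gave a log2 fold change of -0.23 ± 0.091 (SE, edgeR adjusted p = 0.0369). The Lama4 call with induction did not hold with DESeq2 (0.0606), with DESeq2 size factors (0.058), with library totals alone (0.341), with only the 2 groups fitted (0.0897), without induced control library 2 (0.0769) or 3 (0.175) and without uninduced library 1 (0.0622) or 3 (0.126). The Lama4 call for double-knockdown over Trim28-knockdown cells did not hold with library totals alone (0.0512), without double-knockdown library 1 (0.138) or 2 (0.118) and without Trim28-knockdown library 1 (0.0513), 2 (0.135) or 3 (0.0952). The 7 endothelial markers summed to 46.7 to 54.2 CPM in double-knockdown cells, 69.9 to 74.6 CPM in Trim28-knockdown cells, 48 to 61.9 CPM in induced control cells and 12.3 to 13.2 CPM in uninduced cells. Most of this was Tek, which averaged 42.5 CPM in double-knockdown cells, 60.7 CPM in Trim28-knockdown cells, 46.6 CPM in induced control cells and 7.43 CPM in uninduced cells. Of 5 tested, 4 were higher and Kdr was lower with induction, and 3 were higher in Trim28-knockdown than in induced control cells. Of all genes 32.7% and 13.1% were higher in these comparisons. Of the 9 fibroblast markers, all tested, 2 were higher and 4 lower with induction. In Trim28-knockdown over induced control cells 1 was higher and 7 lower, and in double-knockdown over induced control cells 1 and 4. In double-knockdown over Trim28-knockdown cells 5 were higher and 0 lower. Of all genes 32.7%, 11.8% and 18.5% were lower in the first 3 comparisons, and 10% were higher in the last. The part of endothelial cells or fibroblasts in the values of Lama5, Lama4, Lamb1 and Lamc1 was not tested.

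Lama1, a chain of early embryonic basement membranes, rose with induction, and Lama2, the chain of muscle basement membranes, was lower. Lama1 had 8, 12.4 and 9.93 CPM in double-knockdown cells, 12, 10.9 and 14.7 CPM in Trim28-knockdown cells, 13.4, 16.8 and 18.1 CPM in induced control cells and 2.5, 1.86 and 1.68 CPM in uninduced cells. Uninduced libraries were lowest, and the induced groups formed a gradient in which only double-knockdown and induced control libraries did not overlap. Lama1 had a log2 fold change of 2.99 ± 0.21 (SE, edgeR adjusted p = 2.76e-09) with induction and a log2 fold change of -0.67 ± 0.16 (SE, edgeR adjusted p = 0.00474) for double-knockdown over induced control cells. Lama2 had 10.9, 13.2 and 11.7 CPM in double-knockdown cells, 6.47, 7.33 and 8.28 CPM in Trim28-knockdown cells, 10.2, 9.07 and 9.1 CPM in induced control cells and 15.7, 14.5 and 16.5 CPM in uninduced cells. The groups did not overlap, with Trim28-knockdown libraries lowest and uninduced libraries highest. Lama2 had a log2 fold change of -0.72 ± 0.12 (SE, edgeR adjusted p = 4.1e-05) with induction and a log2 fold change of 0.70 ± 0.12 (SE, edgeR adjusted p = 0.000627) for double-knockdown over Trim28-knockdown cells. Against the induced control it had a log2 fold change of -0.36 ± 0.12 (SE, edgeR adjusted p = 0.0428) in Trim28-knockdown cells and a log2 fold change of 0.34 ± 0.12 (SE, edgeR adjusted p = 0.0319) in double-knockdown cells. The Lama2 call for Trim28-knockdown over induced control cells did not hold with DESeq2 (0.0516), without the filter on low counts (0.0629), with only the 2 groups fitted (0.0734), without Trim28-knockdown library 1 (0.155) or 2 (0.101) and without induced control library 1 (0.109) or 3 (0.0633). The Lama2 call for double-knockdown over induced control cells did not hold with DESeq2 (0.0571), with library totals alone (0.0646), without the filter on low counts (0.0539), with only the 2 groups fitted (0.0676), without double-knockdown library 2 (0.145) or 3 (0.0687) and without induced control library 2 (0.0808) or 3 (0.108). Lama1 passed for Trim28-knockdown over induced control cells without the filter on low counts (0.0327) and without induced control library 1 (0.0367). Beside Lama1, the 7 primitive endoderm markers summed to 8.17 to 10.5 CPM in double-knockdown cells, 9.07 to 13 CPM in Trim28-knockdown cells, 12 to 15.5 CPM in induced control cells and 5.46 to 6.99 CPM in uninduced cells, with Sox17 and Foxa2 at 0 in Trim28-knockdown and uninduced cells. Of the 4 tested, Gata4, Amn and Sox7 were higher with induction (log2 fold changes of 5.37, 4.28 and 1.86) and Gata6 was lower (-1.02). With the sum at most 15.5 CPM, the Gata4 change places it under 0.589 CPM, the cut of the filter on low counts, in uninduced cells. Gata4 therefore passed that filter through the induced groups, and its call says little about how often such markers change. Of all genes 32.7% were higher and 32.7% lower with induction. Sox7 was lower in Trim28-knockdown than in induced control cells (-0.87). Gata4 and Sox7 were lower in double-knockdown than in induced control cells (-1.60 and -0.69). The part of such cells in the values of Lama1 was not tested.

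Of the beta and gamma chains shared by many laminins, Lamc1 and Lamb1 were lower in Trim28-knockdown cells than in the induced control, and Lamb2 was lower in induced control than in uninduced cells. Lamc1 had 262, 270 and 258 CPM in double-knockdown cells, 225, 210 and 224 CPM in Trim28-knockdown cells, 417, 393 and 396 CPM in induced control cells and 329, 324 and 299 CPM in uninduced cells. The 4 groups did not overlap, and both knockdown groups lay below the uninduced libraries as well. Lamc1 had a log2 fold change of 0.34 ± 0.06 (SE, edgeR adjusted p = 0.000113) with induction. The gene had a log2 fold change of -0.87 ± 0.061 (SE, edgeR adjusted p = 4.71e-08) for Trim28-knockdown over induced control cells, a log2 fold change of -0.61 ± 0.061 (SE, edgeR adjusted p = 1.33e-06) for double-knockdown over induced control cells and a log2 fold change of 0.26 ± 0.061 (SE, edgeR adjusted p = 0.00585) for double-knockdown over Trim28-knockdown cells. Lamb1 had 458, 428 and 419 CPM in double-knockdown cells, 353, 324 and 340 CPM in Trim28-knockdown cells, 489, 413 and 430 CPM in induced control cells and 445, 459 and 430 CPM in uninduced cells. Trim28-knockdown libraries lay below the rest, and the other groups overlapped. Lamb1 had a log2 fold change of -0.39 ± 0.07 (SE, edgeR adjusted p = 0.000643) for Trim28-knockdown over induced control cells and a log2 fold change of 0.36 ± 0.07 (SE, edgeR adjusted p = 0.0018) for double-knockdown over Trim28-knockdown cells. With induction it had a log2 fold change of 0.00 ± 0.07 (SE, edgeR adjusted p = 0.985), and double-knockdown over induced control cells gave a log2 fold change of -0.03 ± 0.07 (SE, edgeR adjusted p = 0.768). Lamb2 had 249, 231 and 231 CPM in double-knockdown cells, 239, 221 and 209 CPM in Trim28-knockdown cells, 217, 132 and 168 CPM in induced control cells and 519, 477 and 384 CPM in uninduced cells. Uninduced libraries were highest, and double-knockdown libraries lay above the induced control ones. Lamb2, a chain of the neuromuscular junction and the kidney filter, had a log2 fold change of -1.41 ± 0.14 (SE, edgeR adjusted p = 1.56e-07) with induction and a log2 fold change of 0.46 ± 0.14 (SE, edgeR adjusted p = 0.0156) for double-knockdown over induced control cells. Trim28-knockdown over induced control cells gave a log2 fold change of 0.37 ± 0.14 (SE, edgeR adjusted p = 0.0604). The Lamb2 call for double-knockdown over induced control cells did not hold without double-knockdown library 1 (0.055) and without induced control library 2 (0.06) or 3 (0.0549). Lamb2 passed for Trim28-knockdown over induced control cells with DESeq2 (0.0386), with limma-voom (0.047), without the filter on low counts (4.23e-05), with the replicate block (0.0158) and without induced control library 1 (0.00243). Lamc3 averaged 1.41 ± 0.0598 CPM in double-knockdown cells, 1.06 ± 0.193 CPM in Trim28-knockdown cells, 1.29 ± 0.21 CPM in induced control cells and 0.552 ± 0.091 CPM in uninduced cells (SD, n = 3 each). Lamc3 had a log2 fold change of 1.20 ± 0.28 (SE, edgeR adjusted p = 0.00125) with induction, on 7 to 27 reads a library.

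**Figure D2:**
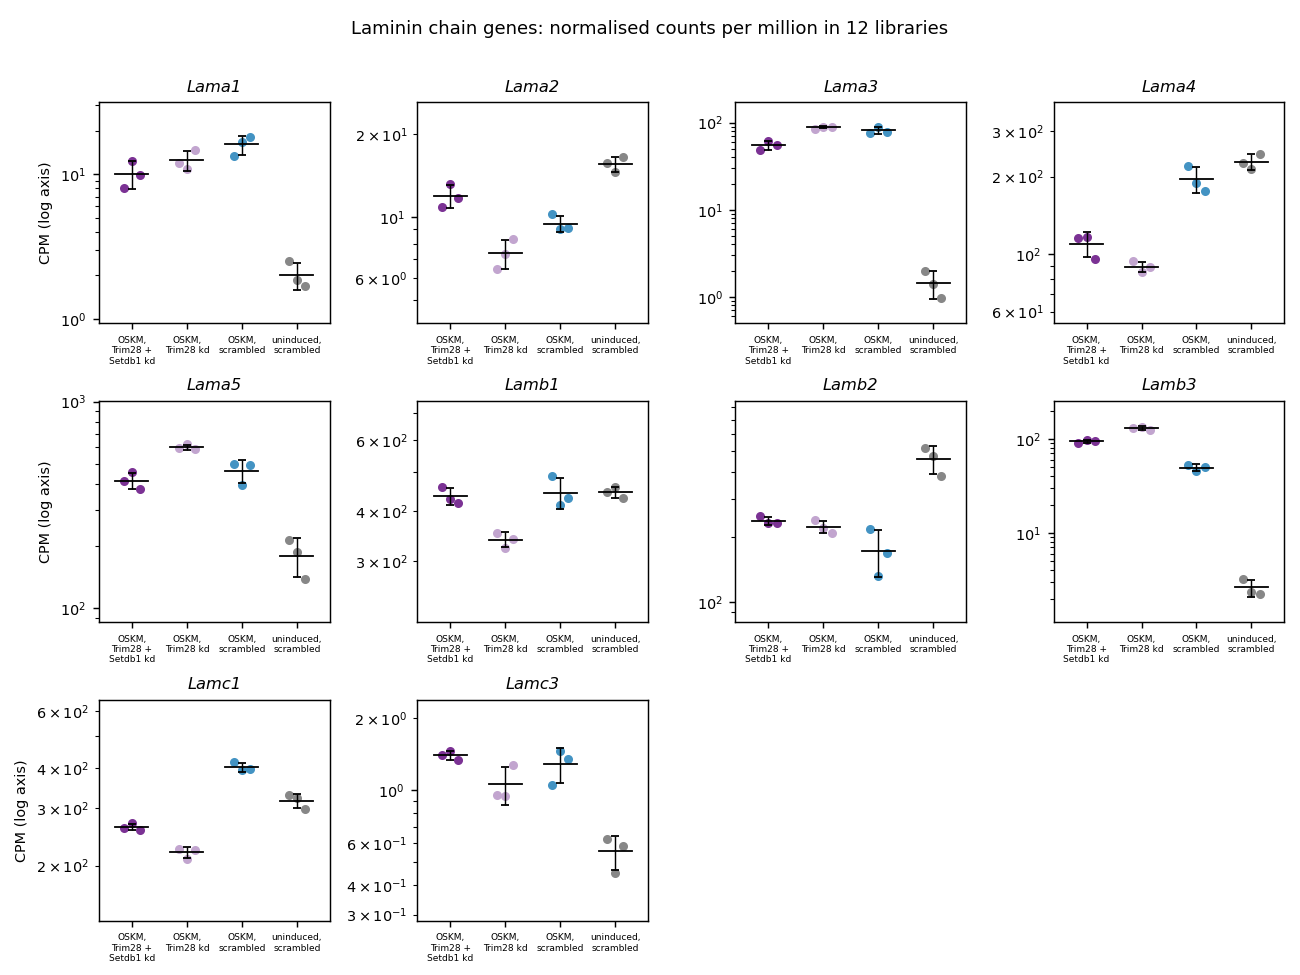
Normalised CPM (log axis) of 10 of the 11 laminin chain genes in the 4 groups, with a point for each library, a line at the group mean and bars of 1 SD (n = 3). Lama3 and Lamb3 lie at or below 3.25 CPM in all uninduced libraries and above 45 CPM in all induced ones.

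Per length, the make-up of the laminin alpha chains differed between groups. Levels were divided by the length of each gene's merged exons, and each chain was taken as a percentage of the summed alpha-chain level. Lama5 made up 69.5% ± 0.314 in double-knockdown cells, 75.3% ± 0.837 in Trim28-knockdown cells, 60.8% ± 3.59 in induced control cells and 43.6% ± 6.58 in uninduced cells (SD, n = 3 each). Lama4 made up 17.3% ± 1.12 in double-knockdown cells, 10.6% ± 0.602 in Trim28-knockdown cells, 24.3% ± 2.38 in induced control cells and 52.8% ± 6.45 in uninduced cells. Lama3 made up 9.76% ± 1.03 in double-knockdown cells, 11.7% ± 0.268 in Trim28-knockdown cells, 11.5% ± 1.87 in induced control cells and 0.372% ± 0.106 in uninduced cells. The ranges of Lama4 (48.1% to 60.1%) and Lama5 (36.1% to 48.3%) touched in uninduced cells, and Lama5 led in each induced group. Among integrin beta subunits, Itgb1 made up 74.3% ± 0.724 in double-knockdown cells, 66.5% ± 1.2 in Trim28-knockdown cells, 64.8% ± 4.37 in induced control cells and 80.7% ± 2.29 in uninduced cells. Itgb4 made up 12.3% ± 0.91 in double-knockdown cells, 21.4% ± 1.08 in Trim28-knockdown cells, 20.1% ± 2.49 in induced control cells and 0.839% ± 0.12 in uninduced cells. These shares carry no test. They depend on which transcripts are used: with the longest transcript in place of the merged exons, Lama4 made up 68.1% and Lama5 28.4% in uninduced cells.

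**Figure D3:**
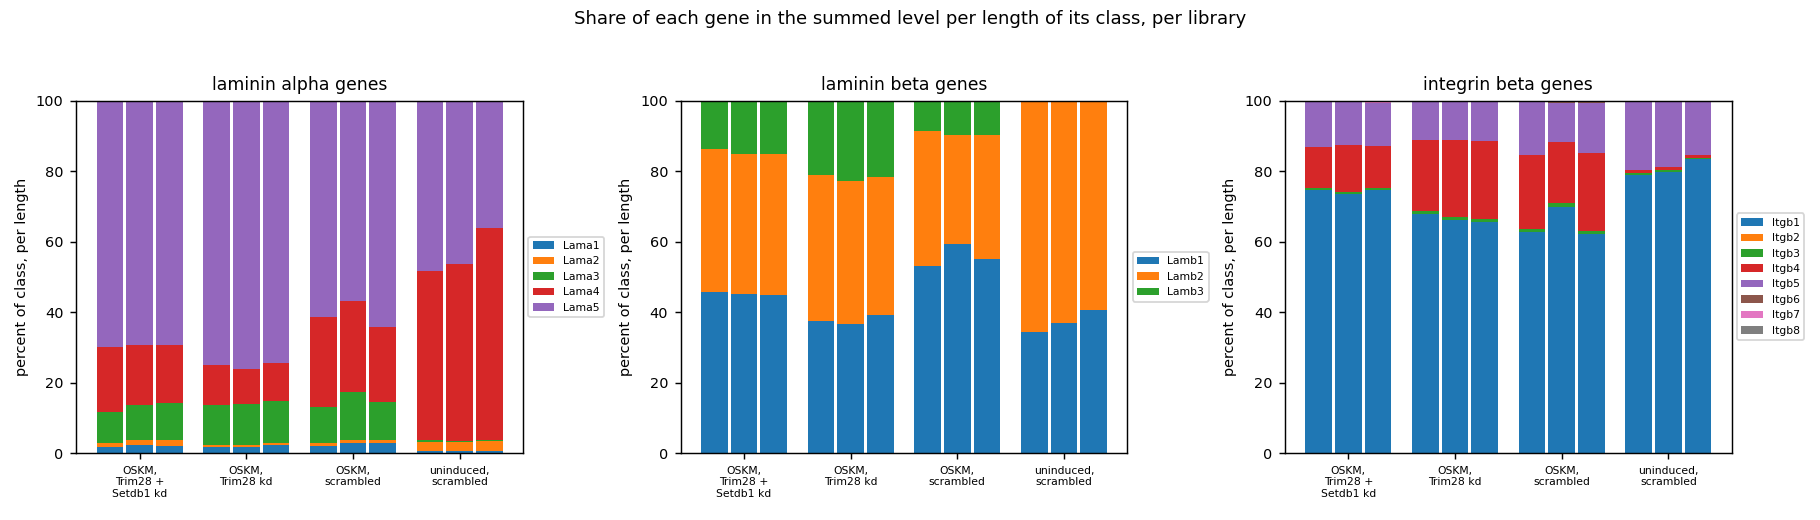
Percentage of each gene in the summed level per length of its class (laminin alpha chains, laminin beta chains and integrin beta subunits), with a bar for each library and the groups in order along the axis. Lama5 takes 57.0% to 76.2% of the alpha chains in induced libraries and 36.1% to 48.3% in uninduced ones.

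Itgb4, the beta subunit of the hemidesmosome, and the laminin-binding alpha subunits Itga3, Itga6 and Itga7 all rose with induction. Itgb4 had 666, 746 and 690 CPM in double-knockdown cells, 1070, 1170 and 1140 CPM in Trim28-knockdown cells, 771, 672 and 803 CPM in induced control cells and 42.3, 41.6 and 34.5 CPM in uninduced cells. Uninduced libraries were far below the rest, Trim28-knockdown libraries were highest, and double-knockdown and induced control libraries overlapped. Itgb4 had a log2 fold change of 4.25 ± 0.097 (SE, edgeR adjusted p = 2.54e-15) with induction. The gene had a log2 fold change of 0.59 ± 0.082 (SE, edgeR adjusted p = 6.48e-05) for Trim28-knockdown over induced control cells and a log2 fold change of -0.69 ± 0.083 (SE, edgeR adjusted p = 3.5e-05) for double-knockdown over Trim28-knockdown cells, while double-knockdown over induced control cells gave a log2 fold change of -0.10 ± 0.082 (SE, edgeR adjusted p = 0.383). Itga6 had 198, 225 and 210 CPM in double-knockdown cells, 223, 238 and 234 CPM in Trim28-knockdown cells, 193, 246 and 222 CPM in induced control cells and 83.5, 79.7 and 87.9 CPM in uninduced cells. The induced groups overlapped. Itga6, the usual partner of Itgb4, had a log2 fold change of 1.39 ± 0.084 (SE, edgeR adjusted p = 3.88e-10) with induction and log2 fold changes of 0.07, -0.06 and -0.13 in the 3 comparisons among induced cells, each short of the threshold.

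Itga3, which pairs with Itgb1 to bind epithelial laminins, was likewise highest in Trim28-knockdown cells. Itga3 had 116, 107 and 107 CPM in double-knockdown cells, 152, 153 and 148 CPM in Trim28-knockdown cells, 113, 98 and 119 CPM in induced control cells and 56.3, 51.4 and 47.1 CPM in uninduced cells. Double-knockdown and induced control libraries overlapped below the Trim28-knockdown ones. Itga3 had a log2 fold change of 1.09 ± 0.081 (SE, edgeR adjusted p = 5.95e-09) with induction, a log2 fold change of 0.46 ± 0.078 (SE, edgeR adjusted p = 0.000353) for Trim28-knockdown over induced control cells and a log2 fold change of -0.46 ± 0.078 (SE, edgeR adjusted p = 0.000545) for double-knockdown over Trim28-knockdown cells. Itga7 had 63.1, 70.9 and 72.8 CPM in double-knockdown cells, 51.3, 61.7 and 53.1 CPM in Trim28-knockdown cells, 43.4, 37.9 and 53.6 CPM in induced control cells and 18.7, 20.8 and 18 CPM in uninduced cells. Double-knockdown libraries were highest. Itga7, the laminin receptor of muscle, had a log2 fold change of 1.24 ± 0.12 (SE, edgeR adjusted p = 1.34e-07) with induction and a log2 fold change of 0.61 ± 0.11 (SE, edgeR adjusted p = 0.000425) for double-knockdown over induced control cells. Double-knockdown over Trim28-knockdown cells gave a log2 fold change of 0.32 ± 0.11 (SE, edgeR adjusted p = 0.0479). The Itga7 call for double-knockdown over Trim28-knockdown cells did not hold with DESeq2 (0.0627), with DESeq2 size factors (0.0655), with library totals alone (0.0805), without double-knockdown library 1 (0.0507), 2 (0.12) or 3 (0.165) and without Trim28-knockdown library 1 (0.173) or 3 (0.16). Itga7 passed for Trim28-knockdown over induced control cells without the filter on low counts (0.0115) and without induced control library 3 (0.00792).

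Itgb1, the beta subunit with the most alpha partners, was lower in induced control than in uninduced cells and higher in both knockdown groups than in the induced control. Itgb1 had 2470, 2390 and 2520 CPM in double-knockdown cells, 2100, 2070 and 1960 CPM in Trim28-knockdown cells, 1340, 1580 and 1310 CPM in induced control cells and 2080, 2190 and 2380 CPM in uninduced cells. Double-knockdown libraries lay above all others, Trim28-knockdown libraries overlapped the uninduced ones, and induced control libraries were lowest. Itgb1 had a log2 fold change of -0.65 ± 0.077 (SE, edgeR adjusted p = 1.42e-06) with induction. The gene had a log2 fold change of 0.53 ± 0.077 (SE, edgeR adjusted p = 8.56e-05) for Trim28-knockdown over induced control cells, a log2 fold change of 0.80 ± 0.077 (SE, edgeR adjusted p = 9.18e-07) for double-knockdown over induced control cells and a log2 fold change of 0.27 ± 0.076 (SE, edgeR adjusted p = 0.0198) for double-knockdown over Trim28-knockdown cells. The Itgb1 call for double-knockdown over Trim28-knockdown cells did not hold without double-knockdown library 1 (0.0666) or 3 (0.0718) and without Trim28-knockdown library 2 (0.0632) or 3 (0.0931). Knockdown and uninduced cells were not tested against each other. Per length Itgb1 was the most abundant of the 37 members, with 602 ± 16.4 CPM per kb in double-knockdown cells, 501 ± 18.6 in Trim28-knockdown cells, 346 ± 35.8 in induced control cells and 544 ± 36.9 in uninduced cells (SD, n = 3 each).

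Itga5, which with Itgb1 forms the main fibronectin receptor, and Itgb5, which with Itgav binds vitronectin, were lower with induction and higher in double-knockdown cells than in both other induced groups. Itga5 had 357, 333 and 358 CPM in double-knockdown cells, 262, 239 and 225 CPM in Trim28-knockdown cells, 228, 197 and 214 CPM in induced control cells and 294, 315 and 286 CPM in uninduced cells. Double-knockdown libraries lay above all others. Itga5 had a log2 fold change of -0.48 ± 0.073 (SE, edgeR adjusted p = 2.29e-05) with induction, a log2 fold change of 0.71 ± 0.073 (SE, edgeR adjusted p = 1.98e-06) for double-knockdown over induced control cells and a log2 fold change of 0.53 ± 0.073 (SE, edgeR adjusted p = 0.000115) for double-knockdown over Trim28-knockdown cells. Itgb5 had 369, 344 and 358 CPM in double-knockdown cells, 293, 297 and 286 CPM in Trim28-knockdown cells, 285, 223 and 263 CPM in induced control cells and 438, 438 and 376 CPM in uninduced cells. Every induced library lay below the uninduced ones, and double-knockdown libraries lay above the other induced ones. Itgb5 had a log2 fold change of -0.70 ± 0.084 (SE, edgeR adjusted p = 1.7e-06) with induction, a log2 fold change of 0.48 ± 0.083 (SE, edgeR adjusted p = 0.000345) for double-knockdown over induced control cells and a log2 fold change of 0.29 ± 0.083 (SE, edgeR adjusted p = 0.0201) for double-knockdown over Trim28-knockdown cells. The Itgb5 call for double-knockdown over Trim28-knockdown cells did not hold without double-knockdown library 1 (0.0827) or 3 (0.0585) and without Trim28-knockdown library 1 (0.0563), 2 (0.0597) or 3 (0.0784). For Trim28-knockdown over induced control cells, Itga5 and Itgb5 both had a log2 fold change of 0.18, which did not pass for either (adjusted p = 0.0813 for Itga5 and 0.12 for Itgb5 by the quasi-likelihood test), and the Itga5 libraries of these groups overlapped. Itga5 passed for Trim28-knockdown over induced control cells without induced control library 1 (0.0477). Itgb5 passed for Trim28-knockdown over induced control cells without induced control library 1 (0.0369).

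Of the other subunits that bind the arginine-glycine-aspartate motif of matrix proteins, Itga8, a receptor of nephronectin, was lower with induction and higher in both knockdown groups. Itga8 had 44.6, 38.7 and 37 CPM in double-knockdown cells, 42.6, 40.4 and 37.4 CPM in Trim28-knockdown cells, 24.5, 26.7 and 19.3 CPM in induced control cells and 52.2, 54.4 and 61.7 CPM in uninduced cells. The knockdown groups overlapped each other and lay between induced control and uninduced libraries. Itga8 had a log2 fold change of -1.27 ± 0.11 (SE, edgeR adjusted p = 5.22e-08) with induction, a log2 fold change of 0.78 ± 0.11 (SE, edgeR adjusted p = 8.99e-05) for Trim28-knockdown over induced control cells and a log2 fold change of 0.78 ± 0.11 (SE, edgeR adjusted p = 5.91e-05) for double-knockdown over induced control cells. Itgav averaged 422 ± 34.6 CPM in double-knockdown cells, 405 ± 18.1 CPM in Trim28-knockdown cells, 384 ± 44 CPM in induced control cells and 419 ± 35.4 CPM in uninduced cells (SD, n = 3 each). Itgav, the alpha partner of several beta subunits, stayed short of the threshold in all 4 comparisons, with log2 fold changes of -0.13, 0.08, 0.14 and 0.06. Itgav passed with induction without induced control library 2 (0.0245). Itgav passed for double-knockdown over induced control cells without induced control library 2 (0.043). Itga2b averaged 3.91 ± 0.539 CPM in double-knockdown cells, 2.57 ± 0.577 CPM in Trim28-knockdown cells, 2.79 ± 0.454 CPM in induced control cells and 4.96 ± 0.549 CPM in uninduced cells (SD, n = 3 each). Itga2b, the platelet fibrinogen receptor subunit, had a log2 fold change of -0.81 ± 0.19 (SE, edgeR adjusted p = 0.00125) with induction and a log2 fold change of 0.60 ± 0.19 (SE, edgeR adjusted p = 0.0351) for double-knockdown over Trim28-knockdown cells. Double-knockdown over induced control cells gave a log2 fold change of 0.46 ± 0.19 (SE, edgeR adjusted p = 0.0685), which passed with the replicate block (log2 fold change 0.48, adjusted p = 0.0364). The Itga2b call for double-knockdown over Trim28-knockdown cells did not hold with DESeq2 (0.0567), without double-knockdown library 1 (0.155) or 3 (0.053) and without Trim28-knockdown library 1 (0.0723) or 2 (0.184). Platelet markers, of which 5 of 7 are in the table, summed to 2.63 to 3.23 CPM in double-knockdown cells, 2.07 to 2.41 CPM in Trim28-knockdown cells, 5.26 to 9.29 CPM in induced control cells and 12.2 to 18 CPM in uninduced cells, with Pf4 at 0 in double-knockdown cells. Most of the sum in induced control and uninduced cells was Ppbp, which averaged 1.51 CPM in double-knockdown cells, 1.22 CPM in Trim28-knockdown cells, 6.47 CPM in induced control cells and 14.1 CPM in uninduced cells. Gp1bb averaged 1.38 CPM in double-knockdown cells, 0.890 CPM in Trim28-knockdown cells, 0.586 CPM in induced control cells and 1.23 CPM in uninduced cells. Of these 2 tested platelet markers, both were lower with induction (-1.11 for Ppbp and -0.98 for Gp1bb), where 32.7% of all genes were lower. In double-knockdown over induced control cells the platelet markers differed, as Ppbp was lower (-2.10) and Gp1bb was higher (1.14). Their part in the values of Itga2b was not tested.

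The collagen-binding alpha subunits were lower with induction in 3 of 4 cases, where 32.7% of all genes were lower. Itga11 averaged 50.9 ± 8.51 CPM in double-knockdown cells, 47.2 ± 8.22 CPM in Trim28-knockdown cells, 50.1 ± 10.3 CPM in induced control cells and 142 ± 5.95 CPM in uninduced cells (SD, n = 3 each). Itga11, the collagen receptor of fibroblasts, had a log2 fold change of -1.5 ± 0.14 (SE, edgeR adjusted p = 9.14e-08) with induction, and its log2 fold changes among induced cells were -0.09, 0.02 and 0.11. Itga1 had 18.3, 17.3 and 14.1 CPM in double-knockdown cells, 21.9, 17.9 and 17 CPM in Trim28-knockdown cells, 24.9, 21.6 and 17.9 CPM in induced control cells and 30.6, 29.8 and 32.1 CPM in uninduced cells. Uninduced libraries were highest, and the induced groups overlapped. Itga1 had a log2 fold change of -0.53 ± 0.13 (SE, edgeR adjusted p = 0.0016) with induction and a log2 fold change of -0.37 ± 0.13 (SE, edgeR adjusted p = 0.0366) for double-knockdown over induced control cells. The Itga1 call for double-knockdown over induced control cells did not hold with only the 2 groups fitted (0.059), without double-knockdown library 2 (0.0505) or 3 (0.139) and without induced control library 1 (0.136) or 2 (0.0503). Itga2 averaged 5.25 ± 1.4 CPM in double-knockdown cells, 5.46 ± 1.39 CPM in Trim28-knockdown cells, 4.89 ± 1.4 CPM in induced control cells and 8.86 ± 0.324 CPM in uninduced cells (SD, n = 3 each). Itga2 had a log2 fold change of -0.89 ± 0.22 (SE, edgeR adjusted p = 0.00209) with induction. Itga10 averaged 4.01 ± 0.81 CPM in double-knockdown cells, 3.76 ± 1.02 CPM in Trim28-knockdown cells, 5.32 ± 1.37 CPM in induced control cells and 6.08 ± 0.393 CPM in uninduced cells (SD, n = 3 each). Itga10 had a log2 fold change of -0.19 ± 0.2 (SE, edgeR adjusted p = 0.437) with induction and a log2 fold change of -0.51 ± 0.21 (SE, edgeR adjusted p = 0.0942) for Trim28-knockdown over induced control cells. Itga10 passed for Trim28-knockdown over induced control cells without the filter on low counts (0.0266), with the replicate block (0.0381) and without Trim28-knockdown library 1 (0.031).

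Itga4, a receptor of fibronectin and Vcam1, and Itgb3 rose with induction and were highest in Trim28-knockdown cells. Itga4 had 19.6, 24.7 and 19.9 CPM in double-knockdown cells, 28, 25.9 and 27.2 CPM in Trim28-knockdown cells, 19.9, 24.6 and 20.7 CPM in induced control cells and 7.74, 7.71 and 7.44 CPM in uninduced cells. Trim28-knockdown libraries lay above all others. Itga4 had a log2 fold change of 1.5 ± 0.12 (SE, edgeR adjusted p = 1.07e-08) with induction, a log2 fold change of 0.32 ± 0.1 (SE, edgeR adjusted p = 0.032) for Trim28-knockdown over induced control cells and a log2 fold change of -0.33 ± 0.1 (SE, edgeR adjusted p = 0.0288) for double-knockdown over Trim28-knockdown cells. The Itga4 call for Trim28-knockdown over induced control cells did not hold without Trim28-knockdown library 1 (0.111), 2 (0.0627) or 3 (0.0972) and without induced control library 1 (0.114) or 3 (0.118). The Itga4 call for double-knockdown over Trim28-knockdown cells did not hold without double-knockdown library 1 (0.132) or 3 (0.11) and without Trim28-knockdown library 1 (0.0869), 2 (0.0558) or 3 (0.0821). Itgb3 had 24, 28.9 and 27.9 CPM in double-knockdown cells, 33.3, 33.9 and 33.7 CPM in Trim28-knockdown cells, 27.9, 29.6 and 27.7 CPM in induced control cells and 16.2, 17.7 and 17.1 CPM in uninduced cells. Again Trim28-knockdown libraries lay above all others. Itgb3, a partner of Itgav and Itga2b, had a log2 fold change of 0.74 ± 0.086 (SE, edgeR adjusted p = 1.3e-06) with induction, a log2 fold change of 0.25 ± 0.082 (SE, edgeR adjusted p = 0.0358) for Trim28-knockdown over induced control cells and a log2 fold change of -0.32 ± 0.081 (SE, edgeR adjusted p = 0.0107) for double-knockdown over Trim28-knockdown cells. The Itgb3 call for Trim28-knockdown over induced control cells did not hold with library totals alone (0.0556), without the filter on low counts (0.0881), with only the 2 groups fitted (0.0529), without Trim28-knockdown library 1 (0.0883), 2 (0.115) or 3 (0.107) and without induced control library 1 (0.0884) or 3 (0.116). The Itgb3 call for double-knockdown over Trim28-knockdown cells did not hold without double-knockdown library 1 (0.0722).

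Itga9, a receptor of tenascin-C, was lower in induced control than in uninduced cells and lower in Trim28-knockdown than in induced control cells. Itga9 had 10.7, 12.1 and 10.2 CPM in double-knockdown cells, 10.3, 9.57 and 10.4 CPM in Trim28-knockdown cells, 12, 15.5 and 13.2 CPM in induced control cells and 14.4, 16.2 and 19.3 CPM in uninduced cells. Induced control libraries overlapped both the uninduced and the double-knockdown ones. Itga9 had a log2 fold change of -0.31 ± 0.12 (SE, edgeR adjusted p = 0.0402) with induction and a log2 fold change of -0.41 ± 0.13 (SE, edgeR adjusted p = 0.0276) for Trim28-knockdown over induced control cells. The Itga9 call with induction did not hold with DESeq2 (0.0745), with DESeq2 size factors (0.0625), with library totals alone (0.233), with only the 2 groups fitted (0.111), without induced control library 1 (0.161) or 3 (0.102) and without uninduced library 2 (0.0617) or 3 (0.207). The Itga9 call for Trim28-knockdown over induced control cells did not hold without Trim28-knockdown library 1 (0.056), 2 (0.0965) or 3 (0.0531) and without induced control library 2 (0.0816) or 3 (0.0551). Itga9 passed for double-knockdown over induced control cells with library totals alone (0.0468) and without induced control library 1 (0.0334).

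**Figure D4:**
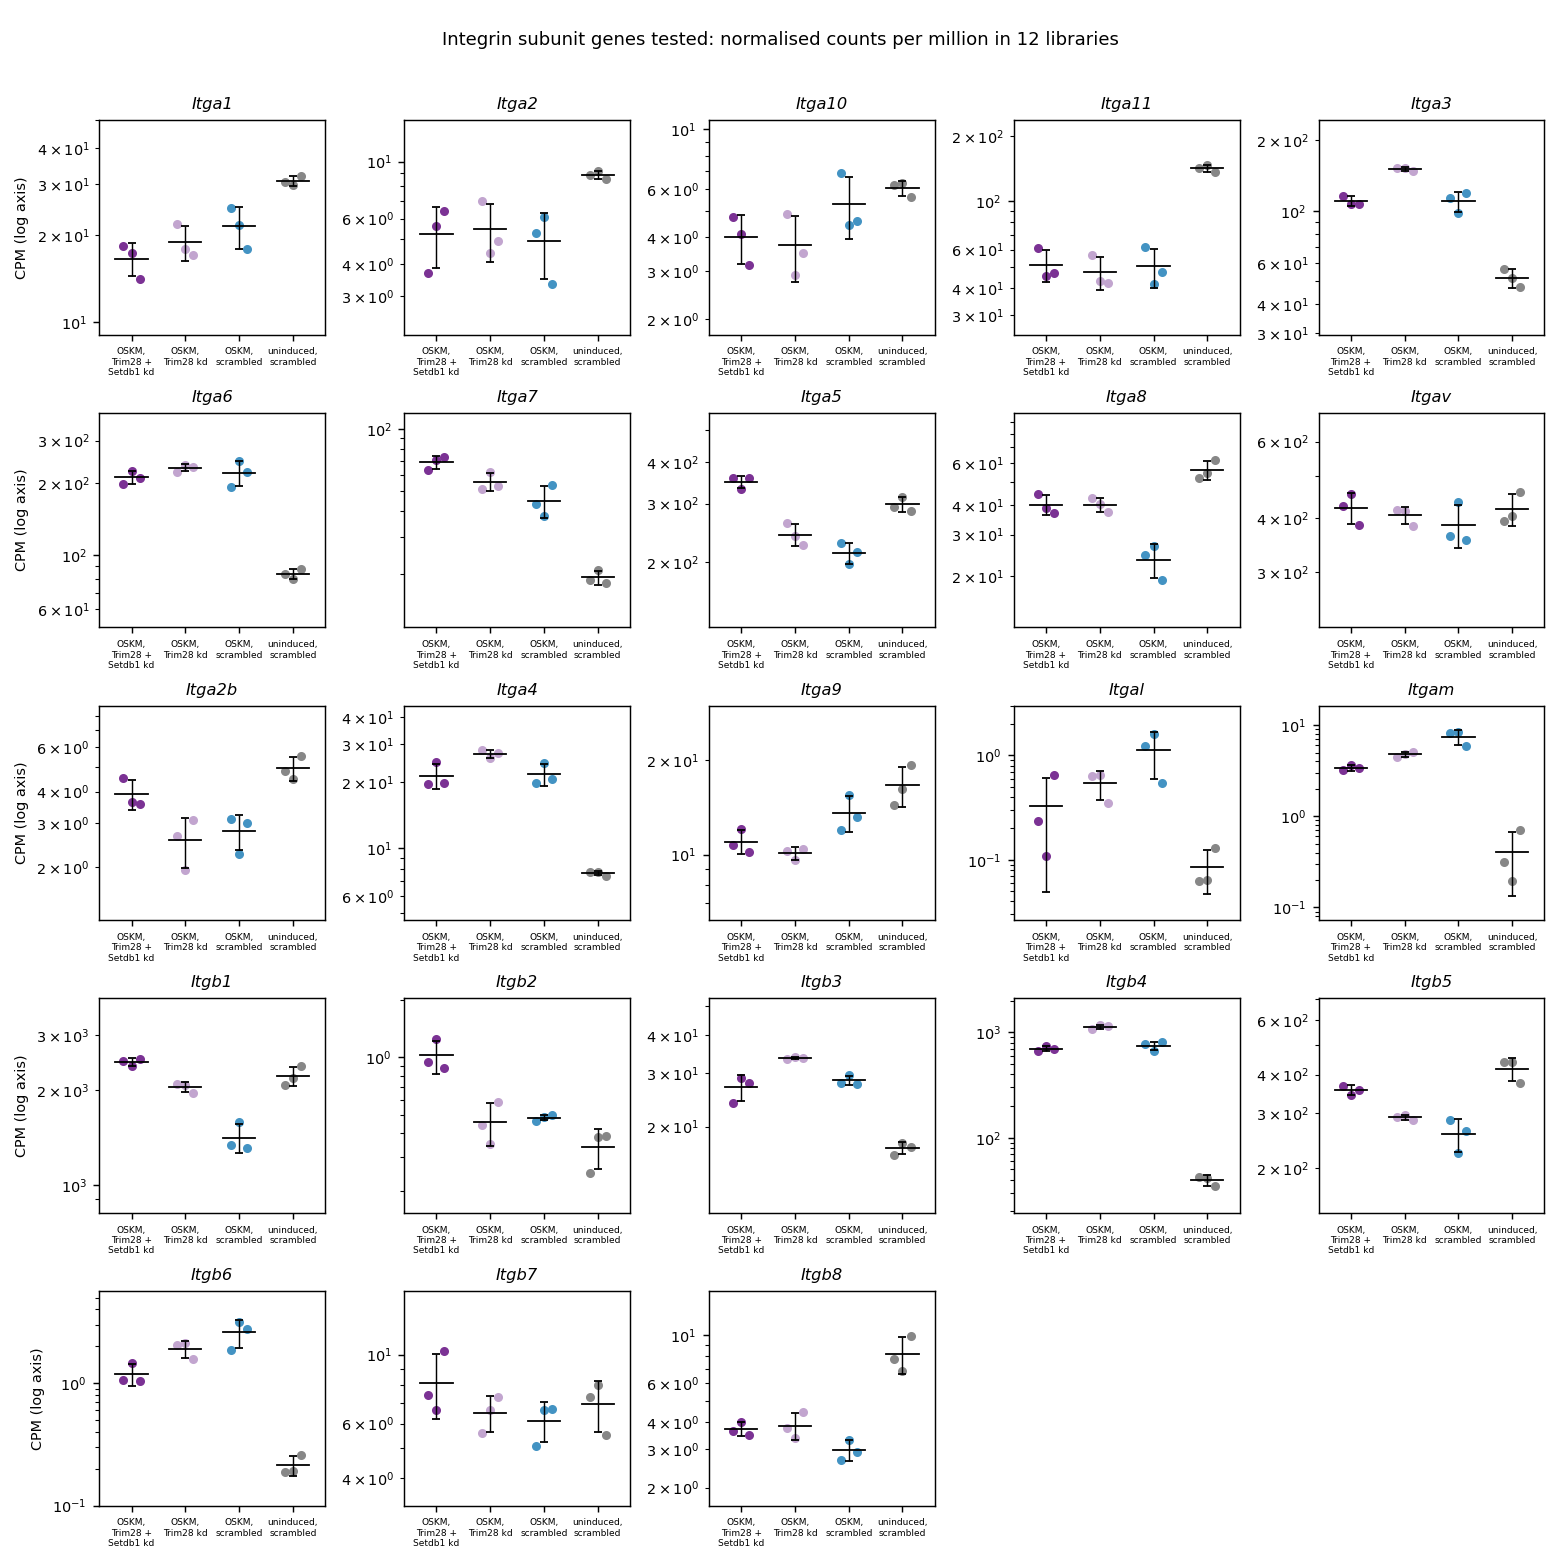
Normalised CPM (log axis) of the 23 tested integrin subunit genes in the 4 groups, with a point for each library, a line at the group mean and bars of 1 SD (n = 3). Itgb4 lies between 34.5 and 42.3 CPM in uninduced libraries and at 666 CPM or more in all induced ones, and Itgb1 is lowest in the induced control.

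Of the subunits best known from leukocytes, Itgam, Itgal and Itgb2 were near the detection limit in uninduced cells. Itgam had 3.18, 3.63 and 3.39 CPM in double-knockdown cells, 4.44, 4.84 and 5.02 CPM in Trim28-knockdown cells, 8.12, 8.42 and 5.85 CPM in induced control cells and 0.312, 0.193 and 0.712 CPM in uninduced cells. Induced control libraries were highest, and the groups did not overlap. Itgam, the alpha subunit of the complement receptor of macrophages, had a log2 fold change of 4.17 ± 0.28 (SE, edgeR adjusted p = 1.57e-09) with induction, a log2 fold change of -0.63 ± 0.18 (SE, edgeR adjusted p = 0.0167) for Trim28-knockdown over induced control cells and a log2 fold change of -1.12 ± 0.19 (SE, edgeR adjusted p = 0.00022) for double-knockdown over induced control cells. The Itgam call for Trim28-knockdown over induced control cells did not hold without Trim28-knockdown library 1 (0.0602). Itgal had 0.235, 0.108 and 0.642 CPM in double-knockdown cells, 0.634, 0.65 and 0.35 CPM in Trim28-knockdown cells, 1.23, 1.62 and 0.55 CPM in induced control cells and 0.0624, 0.0642 and 0.129 CPM in uninduced cells. Induced groups overlapped. Itgal, the alpha subunit of the lymphocyte function antigen, had 52 reads in induced control and 4 in uninduced cells, a ratio of normalised counts of 12.4 (exact 95% interval 4.55 to 47.1, counting error only). It had a log2 fold change of 3.54 ± 0.68 (SE, edgeR adjusted p = 0.000245) with induction and a log2 fold change of -1.70 ± 0.5 (SE, edgeR adjusted p = 0.0141) for double-knockdown over induced control cells. The Itgal call for double-knockdown over induced control cells did not hold without double-knockdown library 1 (0.0544) or 2 (0.0627). Itgal passed for Trim28-knockdown over induced control cells without induced control library 3 (0.0368).

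Itgb2, the beta partner of Itgam and Itgal, did not pass the threshold with induction. Itgb2 had 0.941, 1.25 and 0.876 CPM in double-knockdown cells, 0.444, 0.354 and 0.583 CPM in Trim28-knockdown cells, 0.467, 0.486 and 0.5 CPM in induced control cells and 0.25, 0.385 and 0.388 CPM in uninduced cells. Double-knockdown libraries lay above all others, on 15 to 23 reads a library. They were also the 3 libraries through which the gene passed the filter on low counts, so its calls in the double knockdown are not independent of the filter and are given as values only. Itgb2 had a log2 fold change of 1.07 ± 0.3 (SE, edgeR adjusted p = 0.0104) for double-knockdown over induced control cells and a log2 fold change of 1.14 ± 0.3 (SE, edgeR adjusted p = 0.0126) over Trim28-knockdown cells. Induced control over uninduced cells gave a log2 fold change of 0.50 ± 0.38 (SE, edgeR adjusted p = 0.325). The Itgb2 call for double-knockdown over induced control cells did not hold with DESeq2 (0.0795) and without double-knockdown library 2 (0.0622). The Itgb2 call for double-knockdown over Trim28-knockdown cells did not hold with DESeq2 (0.0864), without double-knockdown library 2 (0.0608) and without Trim28-knockdown library 2 (0.0725). Of 12 leukocyte marker symbols 11 are in the table, all but Adgre1, another name of Emr1, which is in it. These 11 summed to 44.1 to 52.6 CPM in double-knockdown cells, 55.8 to 63.6 CPM in Trim28-knockdown cells, 54.7 to 66 CPM in induced control cells and 8.35 to 9.19 CPM in uninduced cells. Laptm5 alone averaged 42.4 CPM in induced control cells, where Ptprc averaged 0.385 CPM, and Emr1, Tyrobp and Cd52 had no read in Trim28-knockdown cells. Of the 5 tested leukocyte markers, 4 were higher with induction, namely Laptm5 (log2 fold change 7.22), Cd68 (1.87), Coro1a (1.62) and Csf1r (0.65), and Lyz2 was lower (-1.40). The Laptm5 values place it under 0.589 CPM, the cut of the filter on low counts, in uninduced cells. Laptm5 therefore passed that filter through the induced groups, and its call says little about how often such markers change. Of all genes 32.7% were higher and 32.7% lower in that comparison. Csf1r was lower in Trim28-knockdown than in induced control cells (-1.33). Coro1a, Csf1r and Cd68 were lower in double-knockdown than in induced control cells (-1.23, -1.03 and -0.85), where 18.5% of all genes were lower. The part of leukocytes in these values was not tested.

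Itgb6, the epithelial partner of Itgav, rose with induction, and Itgb8, another partner of Itgav, was lower. Itgb6 had 1.06, 1.46 and 1.05 CPM in double-knockdown cells, 2.03, 2.13 and 1.57 CPM in Trim28-knockdown cells, 1.87, 3.16 and 2.75 CPM in induced control cells and 0.187, 0.193 and 0.259 CPM in uninduced cells. Double-knockdown libraries lay below the other induced ones. Itgb6 had 126 reads in induced control and 10 in uninduced cells, a ratio of normalised counts of 12 (exact 95% interval 6.31 to 25.6, counting error only). It had a log2 fold change of 3.55 ± 0.35 (SE, edgeR adjusted p = 1.65e-07) with induction and a log2 fold change of -1.09 ± 0.24 (SE, edgeR adjusted p = 0.00209) for double-knockdown over induced control cells. Itgb6 passed for Trim28-knockdown over induced control cells without induced control library 1 (0.047). Itgb6 passed for double-knockdown over Trim28-knockdown cells with only the 2 groups fitted (0.0446) and without double-knockdown library 2 (0.0499). Itgb8 averaged 3.72 ± 0.26 CPM in double-knockdown cells, 3.85 ± 0.541 CPM in Trim28-knockdown cells, 2.97 ± 0.321 CPM in induced control cells and 8.17 ± 1.56 CPM in uninduced cells (SD, n = 3 each). Itgb8 had a log2 fold change of -1.47 ± 0.17 (SE, edgeR adjusted p = 1.06e-06) with induction. Itgb7 averaged 8.14 ± 1.94 CPM in double-knockdown cells, 6.5 ± 0.861 CPM in Trim28-knockdown cells, 6.14 ± 0.917 CPM in induced control cells and 6.92 ± 1.28 CPM in uninduced cells (SD, n = 3 each). Itgb7, a subunit of lymphocyte homing receptors, had log2 fold changes of -0.18, 0.09, 0.41 and 0.32 in the 4 comparisons, each short of the threshold. Itgb7 passed for double-knockdown over induced control cells without the filter on low counts (0.039). Itgal and Itgb6 had fewer than 10 reads in every uninduced library. Itgam and Lamc3 reached 0.589 CPM, the cut of the filter on low counts, in only 1 uninduced library each. All of these passed the filter through the induced groups, so their calls with induction say little about how often members change.

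Several members had the same calls across comparisons, which is given as a description. Itga3, Itga4, Itgb3, Itgb4, Lama5 and Lamb3, 6 of the 34 tested, rose with induction, were higher in Trim28-knockdown than in induced control cells and were lower in double-knockdown than in Trim28-knockdown cells, as were 2.98% of all genes tested. Of these, Lamb3 was also higher in double-knockdown than in induced control cells. Only for Itga3, Itgb4 and Lamb3 did each call of this pattern hold in every alternative processing. For Itga4, Itgb3 and Lama5 at least the call for Trim28-knockdown over induced control cells was lost in some. Itga5, Itgb5, Itgb1 and Lama2 were lower with induction and higher in double-knockdown than in both other induced groups, as were 4.81% of all genes. Of these, only Itga5 kept each call of the pattern in every alternative. The shares of all genes come from the main fit and were not recomputed in the alternatives. In Trim28-knockdown over induced control cells Itgb1 was higher, Lama2 was lower and Itga5 and Itgb5 did not pass. The genes Itga2, Itga11 and Itgb8 were lower with induction and passed no threshold among induced cells, as was the case for 15.6% of all genes. The genes Itga6 and Lamc3 were higher with induction and passed none among induced cells, which held for 12.2% of all genes. Itga10, Itgav and Itgb7 passed none in the 4 comparisons, and 23.8% of all genes did not. In the first pattern, the Trim28-knockdown libraries enter both knockdown calls with opposite sign, so that high values in the Trim28-knockdown libraries favour both. In the pattern of Itga5, Itgb5, Itgb1 and Lama2, the induced control libraries enter the induction and the double-knockdown calls with opposite sign. Low values in those libraries therefore favour both calls.

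The cytoplasmic adaptors that couple integrins to actin were followed as a list of 31 genes in the table, of which 29 were tested. With induction 4 were higher and 16 lower (median log2 fold change -0.27, against -0.02 for all genes). Called in either direction were 69% of the list, near the 65.3% of all genes, of which 32.7% were lower. Vcl, Rsu1 and Parva had log2 fold changes of -1.01, -0.76 and -0.69, while Fermt3, the kindlin of blood cells, had 6.12. In Trim28-knockdown over induced control cells 15 were higher and 2 lower (median 0.24, against 0 for all genes), with Ptk2b at 0.72, Fermt2 at 0.62, Actn1 at 0.35 and Fermt3 at -0.70. In double-knockdown over induced control cells 21 were higher and 2 lower (median 0.44, against 0), with Fermt2 at 0.79, Ilk at 0.65, Actn1 at 0.59 and Fermt3 at -1.09. In double-knockdown over Trim28-knockdown cells 9 were higher and 3 lower (median 0.18, against 0), with Tgfb1i1 at 0.69, Ilk at 0.42, Nck2 at 0.36 and Tns1 at -0.33. Among induced cells, in the order given, 58.6%, 79.3% and 41.4% of the list were called, against 24.9%, 36.7% and 21.7% of all genes.

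The other hemidesmosome genes were Col17a1, Dst, Plec and Cd151. With induction 3 of the 4 were higher, with log2 fold changes of 5.08 for Col17a1, the transmembrane collagen, 0.85 for Dst and 0.25 for Plec, the plakins that hold keratin filaments. Cd151 had 0.23 and did not pass. Col17a1 averaged 9.43 ± 0.664 CPM in double-knockdown cells, 24.2 ± 3.69 CPM in Trim28-knockdown cells, 20.3 ± 3.69 CPM in induced control cells and 0.593 ± 0.425 CPM in uninduced cells (SD, n = 3 each). With these levels it passed the filter on low counts through the induced groups. In Trim28-knockdown over induced control cells Plec, Dst and Cd151 were higher (0.45, 0.43 and 0.33). In double-knockdown over induced control cells Cd151 and Plec were higher (0.59 and 0.31) and Col17a1 was lower (-1.11). In double-knockdown over Trim28-knockdown cells Col17a1 and Dst were lower (-1.36 and -0.60). Of all genes 65.3%, 24.9%, 36.7% and 21.7% were called in these comparisons, in the order given.

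Matrix ligands of integrins were lower with induction in 16 of 22 tested genes and higher in 3. Thbs1, Fbln5 and Ctgf had log2 fold changes of -1.90, -1.72 and -1.13, and Tgfbi had 0.34. Of all genes 32.7% were higher and 32.7% lower in that comparison. In Trim28-knockdown over induced control cells 6 were higher and 6 lower, with Thbs1 at 0.96, Mfge8 at 0.54, Tnc at 0.39 and Fbn2 at -1.07. In double-knockdown over induced control cells 9 were higher and 5 lower, with Ctgf at 1.21, Thbs1 at 1.13, Tnc at 0.70 and Fbn2 at -1.03. In double-knockdown over Trim28-knockdown cells 9 were higher and 2 lower, with Ctgf at 0.92, Fbln5 at 0.40, Vcam1 at 0.37 and Egfl6 at -0.93. Called in either direction were 86.4% of the list with induction, against 65.3% of all genes. Among induced cells, in the order given, 54.5%, 63.6% and 50% of the list were called, against 24.9%, 36.7% and 21.7% of all genes. The medians of the list were -0.64 with induction, 0.13 for Trim28-knockdown over induced control cells, 0.09 for double-knockdown over induced control cells and 0.19 for double-knockdown over Trim28-knockdown cells, against -0.02 for all genes with induction and 0 in the other comparisons.

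Of the basement membrane proteins that bind laminin, 13 of 15 in the table were tested, and 2 were higher and 8 lower with induction. Sparc, Nid1 and Smoc2 had log2 fold changes of -0.85, -0.66 and -1.36, and Frem2 had 3.50. Called in either direction were 76.9% of the list, against 65.3% of all genes. In Trim28-knockdown over induced control cells the 3 called genes, Nid2, Smoc1 and Npnt, were lower (-0.52, -0.36 and -0.31), which is 23.1% of the list, near the 24.9% of all genes called. In double-knockdown over induced control cells Nid1, the nidogen that links laminin to collagen, and Sparc were higher (0.47 and 0.46), and 2 were lower, led by Npnt (-0.55). These were 30.8% of the list, below the 36.7% of all genes. In double-knockdown over Trim28-knockdown cells 4 were higher, led by Nid1, Sparc and Nid2 (0.48, 0.44 and 0.43), and Egfl6 was lower (-0.93), together 38.5% of the list against 21.7% of all genes.

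Of 7 laminin receptors that are not integrins, Sdc2, Dag1 and Sdc4 were lower with induction (-0.81, -0.52 and -0.33), which is 42.9% of the 7 against 65.3% of all genes called. Mcam and Cd44 were higher in Trim28-knockdown than in induced control cells (0.79 and 0.65), and Sdc2 was lower (-0.24). These were 42.9% of the 7, against 24.9% of all genes called. In double-knockdown over induced control cells 4 were higher, led by Mcam, Cd44 and Bcam (0.76, 0.56 and 0.82). These were 57.1% of the 7, against 36.7% of all genes called. The 7 fell short of the threshold in double-knockdown over Trim28-knockdown cells, with a median log2 fold change of 0.02, where 21.7% of all genes were called.

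Promoter windows from RefSeq, 250 bases before to 50 bases after a gene's start, were found for 23 of the 37 members, in 26 windows. Windows are printed for members that rose with induction (Lama5, Lamb3 and Itga3) and for members that were lower with it (Itgb1 and Itga11), 5′ to 3′ on the gene's strand in build GRCm38.p6. Capitals mark matches to the GC box searched on both strands.
Lama5 chr2:180225810-180226109 (minus strand): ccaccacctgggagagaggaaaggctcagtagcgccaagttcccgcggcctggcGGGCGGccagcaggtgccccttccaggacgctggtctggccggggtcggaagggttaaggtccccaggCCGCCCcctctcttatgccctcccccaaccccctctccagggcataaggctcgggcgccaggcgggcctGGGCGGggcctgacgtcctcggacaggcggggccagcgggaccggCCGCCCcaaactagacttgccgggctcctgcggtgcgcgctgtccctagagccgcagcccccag
Lamb3 chr1:193301744-193302043 (plus strand): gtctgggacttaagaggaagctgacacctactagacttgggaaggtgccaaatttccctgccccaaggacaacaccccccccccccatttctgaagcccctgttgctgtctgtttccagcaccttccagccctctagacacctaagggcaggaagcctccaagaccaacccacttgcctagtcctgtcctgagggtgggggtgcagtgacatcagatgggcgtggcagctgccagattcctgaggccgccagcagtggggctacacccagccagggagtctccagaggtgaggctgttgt
Itga3 chr11:95076665-95076964 (minus strand): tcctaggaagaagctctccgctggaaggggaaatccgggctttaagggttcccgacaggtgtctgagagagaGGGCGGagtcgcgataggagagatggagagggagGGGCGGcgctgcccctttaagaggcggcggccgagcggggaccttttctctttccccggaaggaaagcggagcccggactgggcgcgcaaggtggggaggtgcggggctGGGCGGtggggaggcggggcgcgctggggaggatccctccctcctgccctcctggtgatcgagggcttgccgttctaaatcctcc
Itgb1 chr8:128685404-128685703 (plus strand): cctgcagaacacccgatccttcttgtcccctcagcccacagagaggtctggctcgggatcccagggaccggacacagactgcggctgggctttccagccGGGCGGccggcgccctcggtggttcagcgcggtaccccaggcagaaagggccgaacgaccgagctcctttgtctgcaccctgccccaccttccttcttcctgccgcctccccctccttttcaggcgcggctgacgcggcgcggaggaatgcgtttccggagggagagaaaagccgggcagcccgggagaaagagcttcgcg
Itga11 chr9:62677605-62677904 (plus strand): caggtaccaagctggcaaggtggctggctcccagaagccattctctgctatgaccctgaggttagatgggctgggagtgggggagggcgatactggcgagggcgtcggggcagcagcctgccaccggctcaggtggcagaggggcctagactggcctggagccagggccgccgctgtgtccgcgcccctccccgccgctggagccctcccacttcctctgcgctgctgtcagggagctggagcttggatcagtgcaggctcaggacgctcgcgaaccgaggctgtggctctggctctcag

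The searched motifs were the GC box GGGCGG, the AP-1 element TGANTCA, the Myc E-box CACGTG, the octamer ATGCAAAT and TATAAA, each on both strands. The GC box lay in 46.2% of member windows and in 35.7% of 32851 windows of all genes. The AP-1 element lay in 11.5% of member windows, those of Itgax, Itga9 and another start of Itga3 than the one printed, and in 7.81% of all windows. The E-box, the octamer and TATAAA lay in 7.15%, 1.74% and 13.6% of all windows and matched no member window. Among the printed windows Lama5 holds 4 GC boxes, Itga3 holds 3, Itgb1 holds 1, and Lamb3 and Itga11 hold none of these letters. The counts are descriptions of these windows and no test was made.

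Some members overlap or neighbour other genes in the annotation. Exons of 6 members, Itga1, Itga10, Itga7, Itga4, Itgad and Itgam, overlap exons of another protein-coding gene in the annotation used here, and those of 12 overlap exons of any other gene. No source used here says whether strand entered the counting. It is therefore not known whether reads in exons shared with an overlapping or antisense gene were counted, dropped or taken from that gene. On chromosome 7 Itgam and Itgax lie 1.4 kb apart and Itgax and Itgad 3.7 kb apart. Itga2 and Itga1 are neighbours on chromosome 13, 26.0 kb apart.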

How the data were processed

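The 12 libraries were made from total RNA with the TruSeq RNA kit, per the labels' protocols. The deposited values are raw read counts per gene. The submitters' processing notes name TopHat2 2.0.12, Bowtie 1.1 and HTSeq, and no source used here names the genome build. All 37 members were found by gene ID in the GENCODE vM21 annotation, which gave exon lengths and overlaps. Members, gene lists and tests were chosen with earlier results of these data known. The values of 1 tested laminin chain gene, which is part of every count of members, are not reported here.

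Counts were scaled by TMM and tested with edgeR 4.0.16 (R 4.3.3), 1 term per group over the 12 libraries, on 14520 genes that passed filterByExpr (minimum count 10, minimum total 15). P-values were adjusted by Benjamini-Hochberg over those genes, with a threshold of 0.05. CPM are TMM-scaled, and the SE is the log2 fold change over the root of F. At these depths 3 counts correspond to 0.156 to 0.252 CPM. Genes past the threshold were named, with values by library for the 8 smallest p-values in each comparison and where the knockdowns differed in call. From each other list up to 3 genes with the smallest p were named in the more frequent direction and 1 in the other. Cd151 and Col17a1 levels were added after their values were seen. The fit was tested on simulated data with known changes.

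Libraries of the same group were further apart than counting noise, with a chi-square of 1.9 to 17.5 per degree of freedom, so no library was taken as a copy of another. The spread was uneven. Uninduced libraries 1 and 2 gave 1.9, but 13.3 and 11.7 with library 3. Induced control libraries gave 9.05 to 17.5, double-knockdown libraries 5.06 to 5.6 and Trim28-knockdown libraries 1.95 to 3.19. Replicate numbers come from the titles. Deviations of same-numbered double-knockdown and induced control libraries correlated at 0.141 to 0.31, so these were taken as paired. The main fit holds no replicate term, so p-values printed for this comparison ignore that pairing unless the replicate block is named. Alternatives were DESeq2 1.42.0, limma-voom 3.58.1, DESeq2 size factors, library totals alone, no filter, a minimum count of 30, a replicate block, only the 2 groups fitted, and each library left out.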

Additional observations from a re-analysis of the deposited data

How the results depend on the processing

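The calls of members were recomputed under 14 alternatives a comparison (13 for Itgal, Itgb2 and Lamc3, which the stricter filter removes), and none changed sign among those called. Of the calls, 27 of 29 (induced control over uninduced), 8 of 14 (Trim28-knockdown over induced control), 12 of 17 (double-knockdown over induced control) and 10 of 18 (double-knockdown over Trim28-knockdown) held in every alternative.

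Leaving out 1 library gave, in the same order, 16 to 16, 5 to 9, 7 to 9 and 5 to 7 members higher and 11 to 13, 4 to 7, 6 to 9 and 6 to 9 lower. With only the groups compared in the fit, double-knockdown over Trim28-knockdown cells had 2365 genes higher and 2478 lower, against 1452 and 1702. Without double-knockdown library 1 there were 822 and 1034, without its library 3 there were 1010 and 1225, and without Trim28-knockdown library 1, 2 or 3 there were 1064 and 1350, 776 and 1057, and 896 and 1173. The cause was not tested. Library totals alone changed the split to 1183 and 1976 there, and to 2119 and 3277, against 2633 and 2689, in double-knockdown over induced control cells.

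The replicate block gave 16 higher and 13 lower, 9 and 7, 10 and 9, and 10 and 8 members in the 4 comparisons. Outside the paired comparison, the lowest and highest correlations of same-numbered libraries were -0.224 and 0.21 for induced control and uninduced cells, 0.061 and 0.158 for Trim28-knockdown and induced control cells, and 0.032 and 0.191 for double-knockdown and Trim28-knockdown cells. Of 6 libraries, 2, 5 and 5 correlated best with their own number, a hint from the data and not the design. In the paired comparison the block ended no call of a member, and among the members reported by name it gave a call of Itga2b.

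With the longest transcript as the length, Lama3 made up 8.4%, 10.7%, 9.36% and 0.248% of the alpha chains in double-knockdown, Trim28-knockdown, induced control and uninduced cells, Lama4 29.2%, 19%, 38.7% and 68.1%, and Lama5 58.7%, 67.7%, 48.7% and 28.4%. The shares of Itgb1 and Itgb4 moved by less than 1 SD. Leaving out 1 library was added after seeing the data. With 3 libraries this cannot move a mean by 1 SD, so it says nothing about how stable the shares are. The 3 libraries a group and, for Itgal, Itgb2 and Itgb6, few reads limit the precision.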
